A study of Homo sapiens with 4 samples.

Results

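The mRNAs of stress granule proteins and of the translational repressor PUM2 were compared between immunoprecipitates of tagged FMRP and lysate set aside beforehand. The 9 genes considered were G3BP1, G3BP2, CAPRIN1, ATXN2, ATXN2L, TIA1, TIAL1, PUM2 and USP10, chosen by name, and a probe set was taken as a member when the platform annotation gives it exactly 1 gene symbol and that symbol is one of these. This gave 35 of the 54675 probe sets on the array, from 8 of the 9 genes. No probe set carried USP10 as its single symbol in the annotation used, and USP10, whose product is a deubiquitinase that binds G3BP proteins, was not analysed here. Of the 35 probe sets, 28 had a mean log2 signal over the 4 arrays at or above 4.70, the median of all probe sets, and entered the test.

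The cells were FlpIn T-Rex HEK293, cells of human embryonic kidney origin that carry a transgene inducible by doxycycline. All 4 samples came from such cells, induced with 1 µg/ml doxycycline for 16 h to make FMRP carrying Flag and HA tags. The lysate group held 2 samples of total RNA set aside before the immunoprecipitation, and the immunoprecipitate (IP) group held 2 samples of RNA recovered on anti-FLAG M2 beads and washed at 300 mM KCl. Each sample was hybridized to 1 Human Genome U133 Plus 2.0 array after labelling of 2 µg of RNA. The labels do not say whether the line is 1 clone, whether the replicates were separate cultures, or which lysate belongs to which IP, so the p-values measure only the spread between these samples, which may be technical. RNA held by the beads without tagged FMRP was not measured, since the samples include no mock IP.

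Stress granules are cytoplasmic assemblies of mRNA and RNA-binding proteins that form when translation initiation stalls. G3BP1 and G3BP2 are the scaffold proteins on which they condense, CAPRIN1 and USP10 bind the G3BP proteins in competition with each other, TIA1 and TIAL1 (also called TIAR) are RNA-binding proteins that enter the granules and repress translation, and ATXN2 and ATXN2L are related proteins that bind poly(A)-binding protein. PUM2 is a Pumilio protein, which binds a sequence element in 3′ untranslated regions and represses the mRNAs that carry it. FMRP, the product of FMR1, is itself a translational regulator found in stress granules. The arrays measured the mRNAs that encode these proteins, not the proteins or the granules.

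The 4 arrays gave log2 signals with medians between 4.67 and 4.71. Across the 23516 probe sets tested, arrays of 1 group correlated at a Pearson's r of 0.992 (lysate) and 0.990 (IP), and arrays of different groups at 0.866 to 0.897. These r values are taken across probe sets, which are no replicates. Having 2 arrays per group limits the precision. Of 6 genes listed as HEK293 markers, 5 had a lysate mean at or above 4.70, led by VIM (12.82) and NEFL (11.72), while NEFM stood at 3.73. Of 5 measured markers of other cells, PECAM1 (5.14) and COL1A1 (7.15) were at or above that level. FMR1, the gene whose product was precipitated, was lower in the IP on both of its probe sets, by 0.42 and 0.69 on the log2 scale. Whether these probe sets also detect the transgene mRNA was not analysed here.

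TIA1, TIAL1, ATXN2 and PUM2 mRNAs were lower in the IP than in the lysate, and G3BP1 and CAPRIN1 had probe sets that went in both directions. Of the 28 member probe sets tested, 13 fell, 3 rose and 12 did not pass an adjusted p of 0.05 (limma, adjusted over all 23516 probe sets). Across all probe sets tested 61.5% were called, 33.2% higher and 28.3% lower, so calls were common in this comparison. The members' shares were 10.7% higher and 46.4% lower, with a median change of -0.23 against 0.07 over all probe sets. Taking for each gene the probe set with the highest mean, 1 of 8 member genes was higher and 4 were lower, where over 13157 genes 63.9% were called, 35% higher and 28.8% lower. The member median was then -0.41 against 0.08 over all genes. When each probe set's own spread was used, without the pooling of eBayes, only 201447_at of TIA1, 202405_at and 202406_s_at of TIAL1 and 225007_at of G3BP1 were still called lower, and no ATXN2 or PUM2 probe set was. Over genes, PUM2 and TIAL1 were still lower in that setting. The 201503_at probe set of G3BP1 was not called there, 225340_s_at and 226285_at of CAPRIN1 were called higher, and over all probe sets 28.7% were called. The counts describe a list chosen by name, whose probe sets share genes and are not replicates.

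The scale of the arrays sets where 0 lies. When the 9 hybridization controls, whose median stood 0.53 higher in the IP, were used to centre the arrays, the median of all probe sets moved from 0.07 to -0.46, and the share of calls that were higher went from 54.0% to 19.3%. With that centring 21 of the 28 member probe sets were lower and none was higher. Changes below are on the deposited scale and were not centred on the median change of all probe sets, 0.07.

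**Figure D1:**
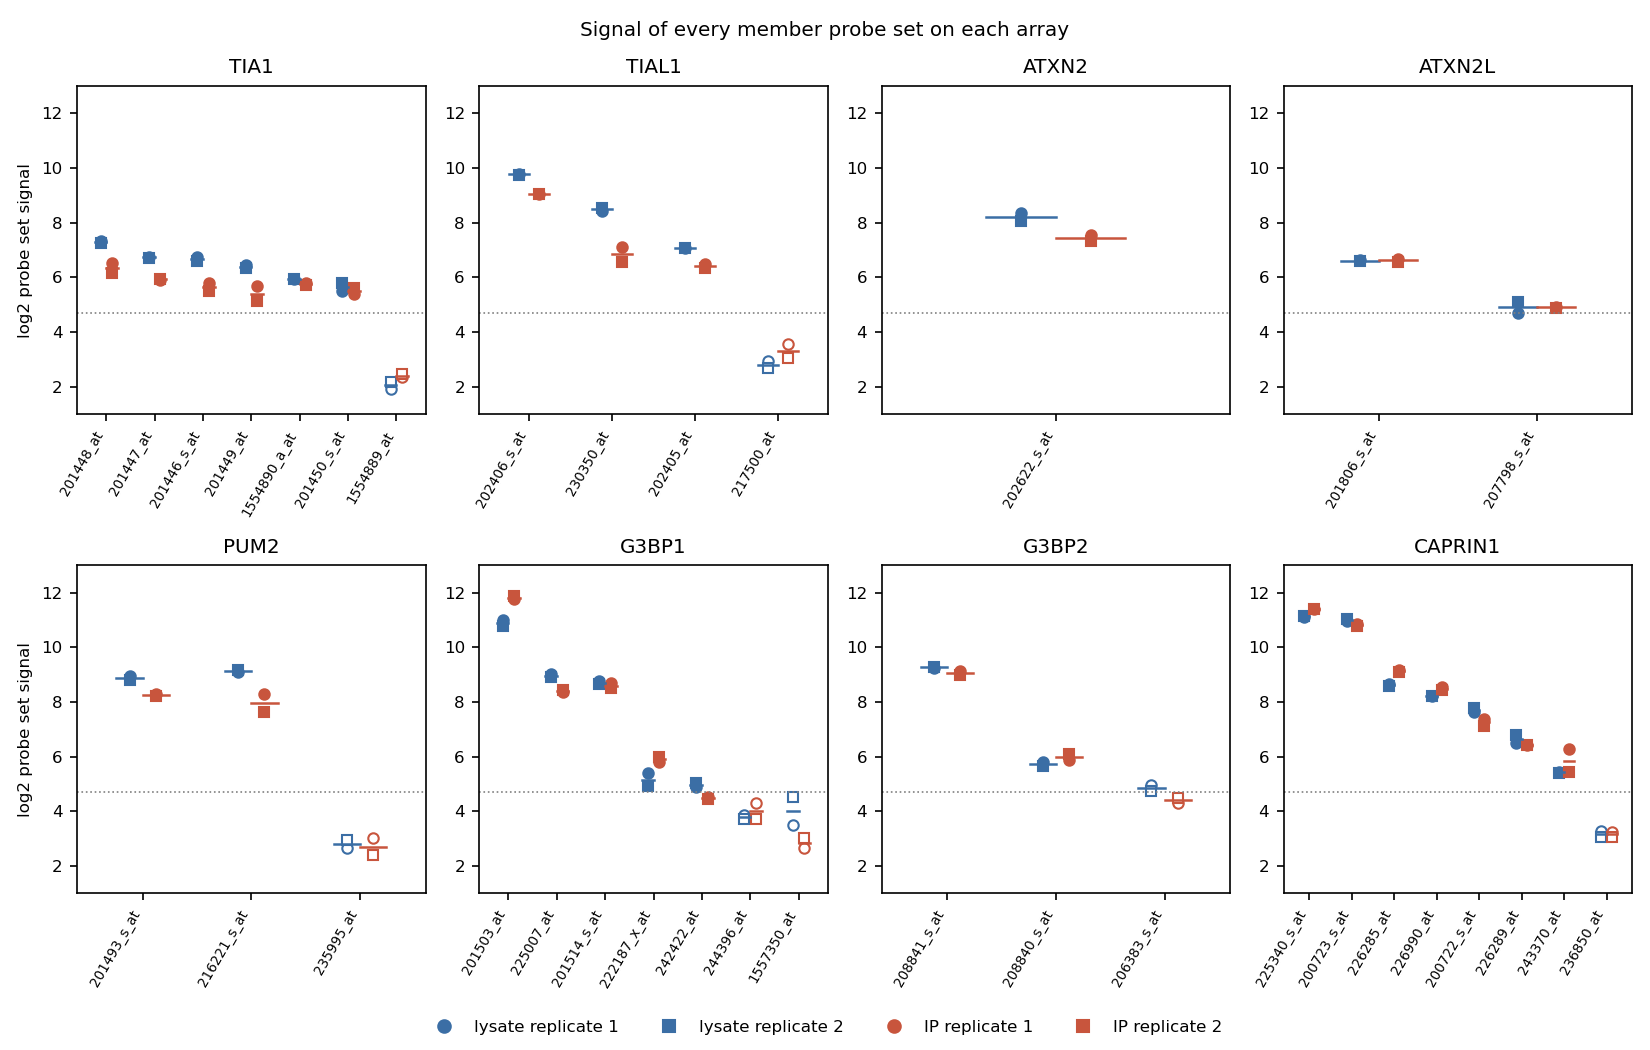
Log2 signal (vertical axis) of each of the 35 member probe sets on each of the 4 arrays, 1 panel per gene, with lysate arrays in blue, IP arrays in red and short lines for the group means. Open symbols mark the 7 probe sets below the dotted line at 4.70, which were not tested; TIA1, TIAL1, ATXN2 and PUM2 have IP symbols under the lysate symbols on their brighter probe sets, whereas G3BP1 and CAPRIN1 have some above and some below.

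TIA1 encodes an RNA-binding protein with a prion-like end that takes part in splicing and in granule assembly. Of its 6 tested probe sets, 4 fell and 2 did not pass. On 201448_at, which had the highest mean of the TIA1 probe sets, the lysate arrays gave 7.34 and 7.27 and the IP arrays 6.52 and 6.15. Both IP arrays lay below both lysate arrays, and the signal was 1.96-fold higher in the lysate (change -0.97, 95% interval -1.33 to -0.61, limma adjusted p = 0.0013). The changes of 201446_s_at and 201449_at were close to this, at -1.00 and -0.99, and that of 201447_at was -0.80. On 201449_at the IP arrays themselves stood apart, at 5.67 and 5.12, so the change was -0.72 when IP replicate 2 was left out and -1.26 when IP replicate 1 was.

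The other TIA1 probe sets moved little. The lysate arrays read 5.96 and 5.93 on 1554890_a_at and the IP arrays 5.80 and 5.71, a change of -0.19 with an interval of -0.47 to 0.09 (limma adjusted p = 0.202). The groups did not overlap there, as for 81.3% of all probe sets tested. On 201450_s_at the lysate arrays gave 5.50 and 5.78 and the IP arrays 5.38 and 5.63, which overlap, with a change of -0.14 (interval -0.50 to 0.23, limma adjusted p = 0.471). A seventh probe set, 1554889_at, stood at 1.92 and 2.17 in the lysate and at 2.34 and 2.47 in the IP, far under the filter. The changes of the 6 tested TIA1 probe sets spanned 0.86 on the log2 scale, and which parts of the transcript each one reads was not analysed here.

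TIAL1 encodes the close relative of TIA1, and all 3 of its tested probe sets fell. The lysate arrays gave 9.80 and 9.75 on 202406_s_at and the IP arrays 9.04 and 9.04, so each pair was tight beside the gap between the pairs. The lysate signal was 1.66-fold higher (change -0.73, 95% interval -1.01 to -0.46, limma adjusted p = 0.00136). A like change of -0.66 was read on 202405_at, from 7.06 and 7.09 to 6.49 and 6.34 (limma adjusted p = 0.0029). The fall was deeper on 230350_at, whose lysate arrays gave 8.43 and 8.54 and whose IP arrays gave 7.11 and 6.57. There the change was -1.64 (interval -2.08 to -1.20, limma adjusted p = 2.99e-04), or 3.12-fold higher in the lysate, and only 4.38% of all probe sets tested had a change at or below it. The remaining probe set, 217500_at, read 2.92 and 2.68 in the lysate and 3.55 and 3.05 in the IP and was not tested.

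The TIA1 and TIAL1 probe sets together comprised 9 tested, 7 lower and none higher. Over all probe sets tested, 28.3% were lower and 33.2% higher. The 9 come from only 2 genes and are not replicates. Set against each other on the probe set with the highest mean of each gene, the change of TIA1 was lower than that of TIAL1 by 0.24 on the log2 scale, and the per-array differences did not overlap between groups (exact two-sided permutation p = 0.333, n = 2 against 2). That p is the smallest that 2 arrays against 2 can give. Of the 10 pairs of genes or probe sets compared in this way, the per-array differences overlapped between groups for the 2 ATXN2L probe sets and for 201448_at and 201447_at of TIA1 (exact permutation p = 1), and the other pairs gave 0.333. A difference within a pair is therefore given as values. The order of TIA1 and TIAL1 depended on the probe sets used. Averaging each gene's tested probe sets gave -0.68 for TIA1 and -1.01 for TIAL1, the opposite order. Probe sets ending in neither _s_at nor _x_at gave -0.97 for TIA1 and -1.64 for TIAL1, again the opposite order.

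ATXN2 encodes ataxin-2, which binds poly(A)-binding protein and in which expanded glutamine repeats cause a spinocerebellar ataxia. It was represented by 1 probe set, 202622_s_at, with 8.35 and 8.06 on the lysate arrays and 7.54 and 7.33 on the IP arrays. Both IP values lay below both lysate values, the change was -0.77 (95% interval -1.13 to -0.42, limma adjusted p = 0.00343), and the lysate signal was 1.71-fold higher. With any 1 array left out the change stayed between -0.92 and -0.63 and was still called.

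ATXN2L, the gene of the related ataxin-2-like protein, read 6.63 and 6.60 in the lysate and 6.68 and 6.56 in the IP on 201806_s_at. The groups overlapped, and the change was 0.00 with an interval of -0.28 to 0.29 (limma adjusted p = 0.983). The other probe set, 207798_s_at, gave 4.70 and 5.10 against 4.92 and 4.89, a change of 0.01 with an interval of -0.36 to 0.38. Both intervals leave out a fall of the size measured for ATXN2, -0.77. The change of ATXN2 was lower than that of ATXN2L by 0.78 on the log2 scale: the per-array difference was 1.72 and 1.46 in the lysate and 0.86 and 0.77 in the IP, with no overlap (exact two-sided permutation p = 0.333). With hybridization control centring both ATXN2L probe sets were called lower, at -0.53 and -0.52.

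PUM2, the Pumilio protein gene of the group, fell on both tested probe sets. The lysate arrays gave 8.94 and 8.80 on 201493_s_at and the IP arrays 8.30 and 8.23 (change -0.60, 95% interval -0.89 to -0.31, limma adjusted p = 0.00419), so the lysate signal was 1.52-fold higher. On 216221_s_at the lysate arrays were closer together, at 9.11 and 9.16, and the IP arrays further apart, at 8.29 and 7.62. The IP arrays again lay below both lysate arrays, with a change of -1.18 (interval -1.69 to -0.67, limma adjusted p = 0.00253). The size of this fall varied with the array: leaving out IP replicate 2 gave -0.84, and leaving out IP replicate 1 gave -1.52. The probe set 235995_at, at 2.65 and 2.96 in the lysate and 3.01 and 2.40 in the IP, was below the filter.

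**Figure D2:**
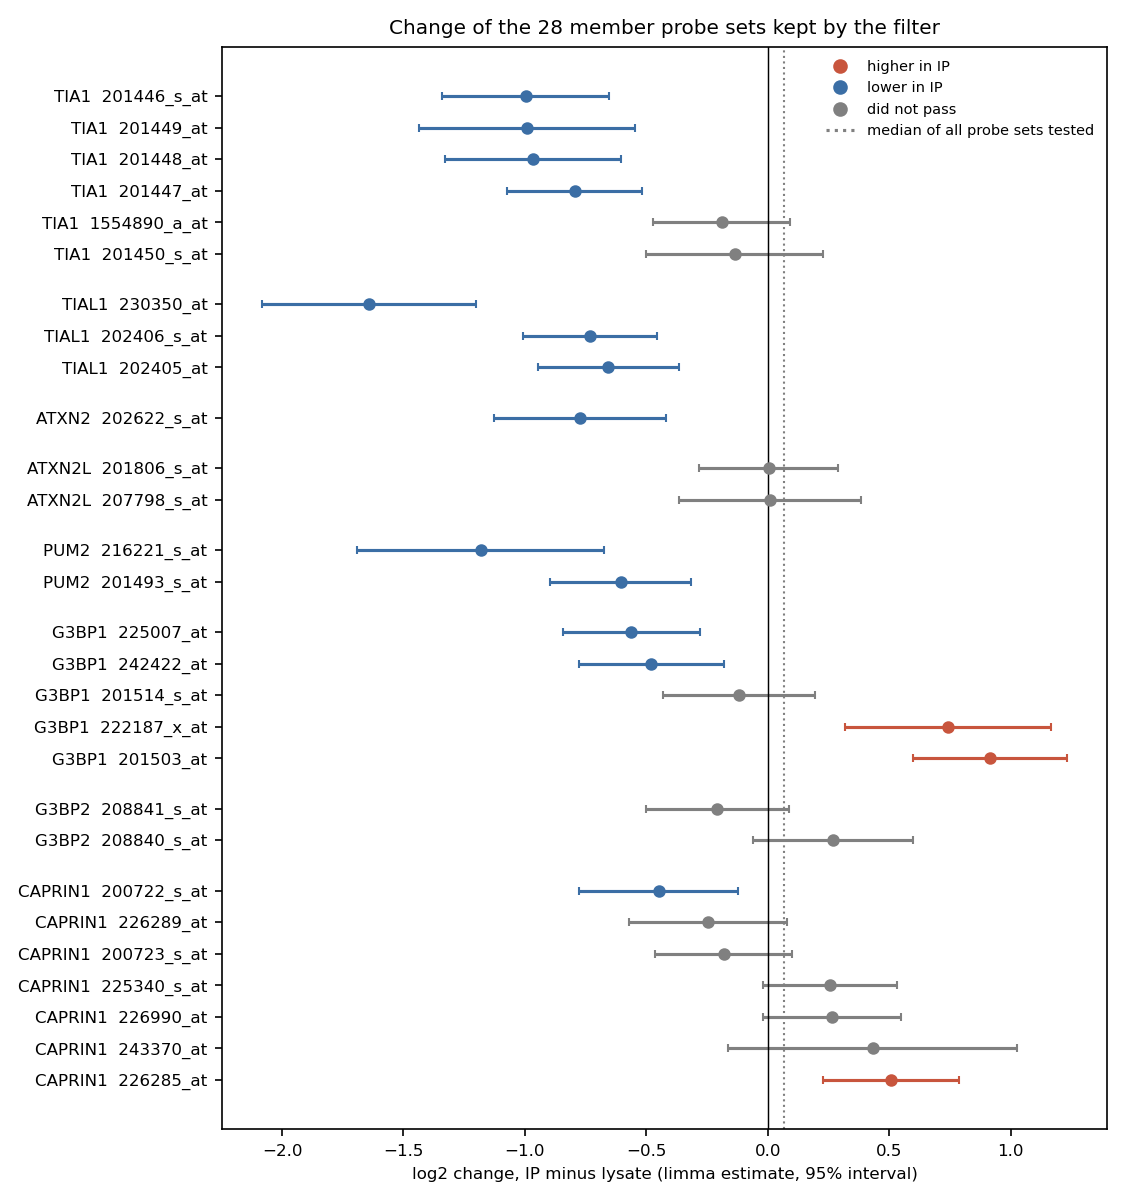
Change in log2 signal, IP minus lysate (horizontal axis), with its 95% interval from limma for each of the 28 tested probe sets, grouped by gene. Red marks the 3 that were higher, blue the 13 that were lower and grey the 12 that did not pass; the dotted line is the median of all probe sets tested, 0.07.

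G3BP1 encodes the scaffold protein whose condensation with RNA starts a stress granule, and its probe sets disagreed. On 201503_at the lysate arrays gave 11.01 and 10.78 and the IP arrays 11.75 and 11.86. Both IP arrays were above both lysate arrays, and the IP signal was 1.88-fold higher (change 0.91, 95% interval 0.60 to 1.23, limma adjusted p = 9.12e-04). On 225007_at the order was the opposite, with 9.01 and 8.92 in the lysate against 8.38 and 8.43 in the IP, a change of -0.56 (interval -0.84 to -0.28, limma adjusted p = 0.00515). The 201503_at rise was still called with any 1 array left out, at 0.80 to 1.03, and so was the 225007_at fall, at -0.61 to -0.52. With hybridization control centring 201503_at was at 0.38 and did not pass, while 225007_at was lower at -1.09.

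The remaining G3BP1 probe sets were also split. The lysate arrays gave 8.78 and 8.64 on 201514_s_at and the IP arrays 8.69 and 8.50, which overlap (change -0.12, interval -0.43 to 0.20, limma adjusted p = 0.47). On 222187_x_at, a class of probe set in which some probes can match other transcripts, the values were 5.39 and 4.92 against 5.80 and 6.0, a rise of 0.74 (limma adjusted p = 0.0094). On 242422_at they were 4.87 and 5.05 against 4.51 and 4.45, a lower call with a change of -0.48 (limma adjusted p = 0.0135) that did not pass without lysate replicate 2 (-0.39). Below the filter, 244396_at read 3.87 and 3.73 against 4.30 and 3.71, and 1557350_at read 3.50 and 4.51 against 2.67 and 3.02.

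The 5 tested G3BP1 probe sets spanned 1.48 on the log2 scale. Among the 2618 genes with 3 or more tested probe sets the median span was 0.74, and 88% had a span no larger than that of G3BP1. In 8.33% of those genes at least 1 probe set was called higher and at least 1 lower, as in G3BP1 and CAPRIN1. Among the 337 genes with 5 to 7 tested probe sets, as G3BP1 has, this was 16% and the median span was 1.05. The difference between 201503_at and 225007_at was 2.00 and 1.86 in the lysate and 3.38 and 3.43 in the IP, so it was larger by 1.48 in the IP with no overlap (exact two-sided permutation p = 0.333). With the mean of its tested probe sets in place of the one with the highest mean, G3BP1 changed by 0.10 and was not called.

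G3BP2, the paralog that can stand in for G3BP1 in granule assembly, did not pass on either tested probe set. On 208841_s_at the lysate arrays gave 9.23 and 9.30 and the IP arrays 9.14 and 8.98 (change -0.21, 95% interval -0.50 to 0.09, limma adjusted p = 0.188). On 208840_s_at they gave 5.81 and 5.65 against 5.88 and 6.11 (change 0.27, interval -0.06 to 0.60, limma adjusted p = 0.134). The groups did not overlap on either probe set, as for 81.3% of all probe sets tested, but in opposite directions. The probe set below the filter, 206383_s_at, read 4.96 and 4.75 against 4.31 and 4.49. On the probe set with the highest mean of each gene, the change of G3BP1 was above that of G3BP2 by 1.12: the per-array difference was 1.78 and 1.49 in the lysate and 2.62 and 2.89 in the IP (exact two-sided permutation p = 0.333). That comparison rests on 201503_at, since the other G3BP1 probe sets gave changes from -0.56 to 0.74.

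CAPRIN1 encodes the G3BP-binding protein caprin-1, which also binds FMRP. It had 7 tested probe sets, of which 1 rose, 1 fell and 5 did not pass. On 226285_at the lysate arrays gave 8.65 and 8.59 and the IP arrays 9.16 and 9.10, so the IP signal was 1.42-fold higher (change 0.51, 95% interval 0.23 to 0.79, limma adjusted p = 0.00785). On 200722_s_at the lysate arrays gave 7.62 and 7.78 and the IP arrays 7.37 and 7.14 (change -0.45, interval -0.78 to -0.12, limma adjusted p = 0.0255). The fall was no longer called when lysate replicate 2 (-0.37) or IP replicate 2 (-0.33) was left out, whereas the rise was called with each array left out, at 0.48 to 0.54. With hybridization control centring the rise was gone, at -0.02.

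The 2 CAPRIN1 probe sets with the highest means differed in sign and did not pass. On 225340_s_at the lysate arrays gave 11.12 and 11.16 and the IP arrays 11.39 and 11.41 (change 0.26, interval -0.02 to 0.53, limma adjusted p = 0.0955). On 200723_s_at they gave 10.95 and 11.04 against 10.84 and 10.78 (change -0.18, interval -0.46 to 0.10, limma adjusted p = 0.225). In both the groups were apart, as for 81.3% of all probe sets tested. The difference between these probe sets was 0.17 and 0.13 in the lysate and 0.55 and 0.63 in the IP. The changes of 226990_at and 226289_at were 0.26 and -0.25. On 243370_at the IP arrays stood at 6.28 and 5.44 beside lysate values of 5.45 and 5.41, so the change of 0.43 came from IP replicate 1, and it was called higher, at 0.85, without IP replicate 2. The probe set 236850_at stood at 3.27 and 3.06 against 3.25 and 3.06, below the filter. Across the gene the changes spanned 0.96, beside a median span of 1.05 among genes with 5 to 7 tested probe sets.

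By probe set type, the 12 tested member probe sets with the plain suffix _at, which the manufacturer designed against a single transcript or gene, had 2 higher and 7 lower calls. The 14 with _s_at, whose probes can be shared by several transcripts, had none higher and 6 lower. Over all probe sets tested, of every type, 33.2% were higher and 28.3% lower. Shares by type were not computed over all probe sets, so the 2 types are not compared here. Restricted to probe sets that end in neither _s_at nor _x_at, CAPRIN1 was called higher (0.51), as was G3BP1, and TIA1 and TIAL1 were the lower genes; ATXN2, ATXN2L, G3BP2 and PUM2 have no tested probe set of that kind.

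Other genes of the same pathways were described from 3 lists, named by what their products do and chosen with earlier results of these data known. Of 58 other stress granule genes, 51 were measured, with 19 higher (37.3%) and 12 lower (23.5%) and a median change of 0.03, beside 35% and 28.8% over all genes and a median of 0.08. The largest rises were those of FXR2, the FMRP paralog (1.99), PRRC2B (1.56) and the ubiquitin ligase gene TRIM25 (1.39). The other tested PRRC2B probe sets disagreed. Their changes were 0.81 (limma adjusted p = 0.0465 over probe sets) and -0.25, which did not pass (limma adjusted p = 0.165). The other tested TRIM25 probe set rose less, by 0.43 (limma adjusted p = 0.0274 over probe sets). The largest falls were those of LSM12 (-2.16), which encodes a partner of ataxin-2, the splicing regulator gene MBNL1 (-1.55) and NUFIP2 (-1.43), which encodes an FMRP-interacting protein. Other tested MBNL1 probe sets changed by -1.29 and -3.04. CAPRIN2, the paralog of CAPRIN1, stood at -0.07 (95% interval -0.35 to 0.21, limma adjusted p = 0.653); a second CAPRIN2 probe set was below the filter.

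The next list, of genes that act on stress granule formation and clearance, held the initiation factor eIF2 with its kinases, its exchange factor eIF2B and its phosphatase, the cap-binding and helicase factors EIF4E, EIF4A1 and EIF4A2, the transcription factors ATF4 and HSF1, heat shock proteins and their co-chaperones, and the ATPase VCP. Of its 28 genes, 24 were measured, with 8 higher (33.3%) and 9 lower (37.5%) and a median of 0.01. VCP rose by 1.65, EIF2S2, which encodes the beta subunit of eIF2, by 1.33, and EIF2AK4, the gene of the amino acid sensing kinase GCN2, by 1.16. EIF4E, the cap-binding protein gene, changed by -2.67, EIF2AK2, the gene of the double-stranded RNA kinase PKR, by -1.92, and EIF2S3, the gamma subunit of eIF2, by -1.23. The 2 eIF2 subunit genes named here therefore went opposite ways, and EIF2S1, the alpha subunit gene, stood at -0.002 (limma adjusted p = 0.987). Sizes varied between the probe sets of a gene. Other tested probe sets gave smaller changes of 0.34 for EIF2AK4, -0.63 for EIF2AK2, and -1.54 and -1.70 for EIF4E. Larger changes were read on others, at 2.01 for EIF2S2 and -2.33 and -1.52 for EIF2S3.

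The last list held partners of Pumilio proteins, which recruit the CCR4-NOT deadenylase, and of USP10. Of 21 genes 19 were measured, with 4 higher (21.1%) and 6 lower (31.6%) and a median of -0.09. CNOT1, the scaffold of CCR4-NOT, rose by 0.89, the deubiquitinase gene USP13 by 0.73 and CNOT10 by 0.54. CNOT7, a deadenylase gene, changed by -2.0, CNOT9 by -1.40 and CNOT4, which encodes a ubiquitin ligase linked to the complex, by -1.22. All of the genes named from these 3 lists as rising or falling passed at a limma adjusted p of 0.00608 or lower over 13157 genes. With hybridization control centring the higher and lower counts were 7 and 26 for the other stress granule genes, 3 and 13 for the genes of granule formation and clearance and 0 and 10 for the Pumilio and USP10 partners.

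**Figure D3:**
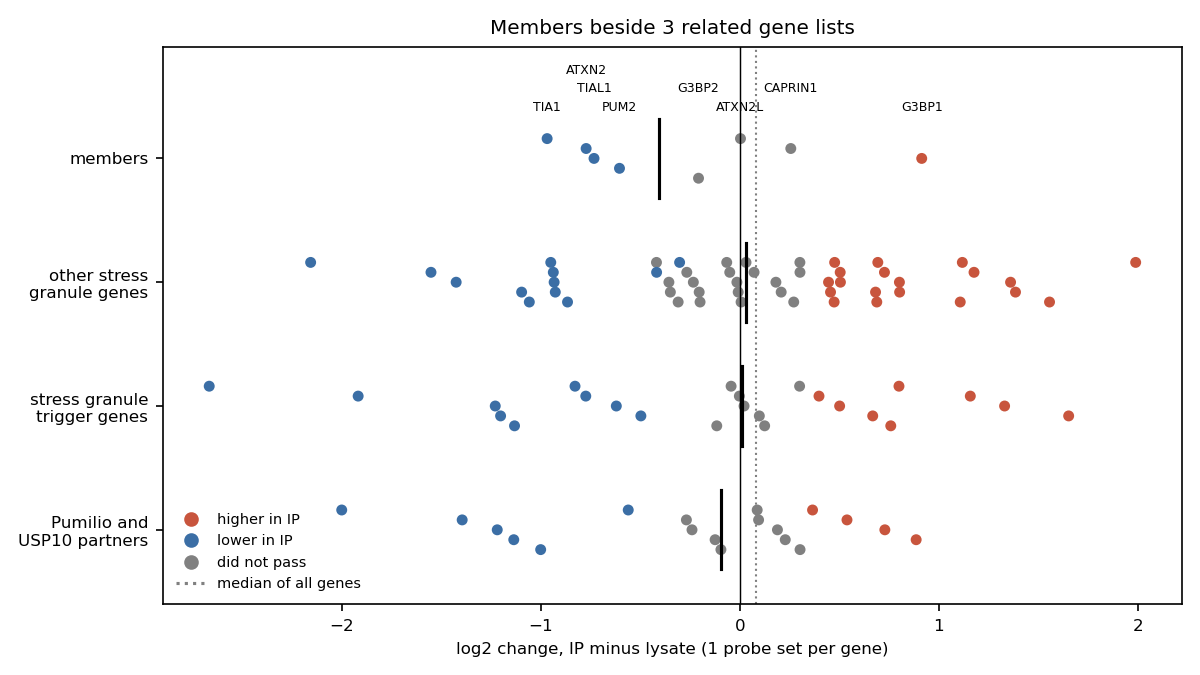
Change in log2 signal, IP minus lysate (horizontal axis), with 1 point per gene for the 8 measured members and for the 51, 24 and 19 measured genes of the 3 related lists. Red marks genes called higher, blue genes called lower and grey genes that did not pass, black bars are list medians (-0.41, 0.03, 0.01 and -0.09) and the dotted line is the median of all genes, 0.08.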

How the data were processed

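Each deposited value is the log2 signal of a probe set. This scale was inferred from the values; how the authors corrected background, summarized probes and normalized arrays is not stated in the labels. The platform annotation gave 1 gene symbol to 41091 of the 54675 probe sets, several to 1801 and none to 11721, beside 62 controls; symbols were updated through the Entrez number for 41037. Probe sets with 1 symbol and a mean of at least 4.70 over the 4 arrays were kept. The difference between IP and lysate was estimated by limma 3.58.1 under R 4.3.3 (lmFit, then eBayes, 2 residual degrees of freedom, no covariate) over 23516 probe sets and, with the probe set of highest mean per gene, over 13157 genes, with Benjamini-Hochberg adjustment. The fits were tested on simulated data. There the probe set fit recovered 29% of changes of log2 1 and 86% of changes of log2 2, with 0 false calls. The gene fit recovered 56% and 94%, with 3 false calls. A change of log2 1 or less can therefore be missed. Every probe set of the members is named, and of each list the 3 called genes with the largest rise and fall. The members and lists were chosen with earlier results of these data known. Alternatives covered normalization, filter, probe set choice, replicate block, spread estimate, threshold and leaving out each array. No detection calls are used, so low values have no known floor. Promoters were not examined and no coordinates are printed. Figures were drawn with matplotlib 3.10.9.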

Additional observations from a re-analysis of the deposited data

How the results depend on the processing

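Of the 28 member probe sets, 13 were lower and 3 higher; with each array left out in turn 11 to 13 were lower and 3 to 4 higher. With hybridization control centring 21 were lower and 0 higher; there CAPRIN1 226285_at turned to -0.023, and ATXN2L 201806_s_at and 207798_s_at to -0.53 and -0.52, as did the ATXN2L gene (-0.53). Uncalled values that also changed sign there were those of CAPRIN1 225340_s_at (-0.28, also the CAPRIN1 gene), 226990_at (-0.27) and 243370_at (-0.10) and of G3BP2 208840_s_at (-0.26). Without eBayes, with only 2 residual degrees of freedom, 4 were lower. The cause of the shift in the controls was not tested. Of member genes (1 higher, 4 lower), 0 were higher with that centring or when a gene's probe sets were averaged, 2 with trend and robust eBayes, and 2 higher and 2 lower with probe sets not ending in _s_at or _x_at, which 4 genes lack; without eBayes 2 were lower. For the related lists, hybridization control centring gave 7 higher and 26 lower other stress granule genes and 3 higher formation and clearance genes. It gave 0 higher and 10 lower Pumilio and USP10 partners. Probe sets not ending in _s_at or _x_at gave 11 higher and 6 lower other stress granule genes and 5 higher formation and clearance genes. Genes without such a probe set are not tested there, and the number left is not given, so these counts are not shares. Same-numbered samples were not shown to be pairs: with the replicate number as a block 13 member probe sets were lower and 3 higher, as without it, and deviations of same-numbered samples correlated at 0.07 across probe sets. Quantile normalization gave the same 2 counts. Without a filter all 35 member probe sets were tested, and the 2 counts were the same but not their members. CAPRIN1 200722_s_at was then no longer called (limma adjusted p = 0.0772), and a probe set from below the filter was called lower. With 2 arrays per group, several changes of about 0.2 to 0.4 did not pass.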

Other observations

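The subunits of CCR4-NOT, the deadenylase that Pumilio proteins recruit, did not move as a block. The 4 genes of its catalytic subunits, picked out after their values were seen, were all lower in the IP, with changes of -2.0 for CNOT7, -1.14 for CNOT6L, -1.00 for CNOT8 and -0.56 for CNOT6 (limma adjusted p of 0.00627 or lower over all genes, of which 28.8% were called lower). Falls were not limited to these: CNOT9 changed by -1.40, lower on all 4 of its tested probe sets, and CNOT4 by -1.22. The scaffold gene CNOT1 was higher on all 3 of its tested probe sets, at 0.49, 0.83 and 0.89, and the subunit gene CNOT10 at 0.54, while CNOT2 (0.30), CNOT3 (0.19) and CNOT11 (-0.24) did not pass. The other tested CNOT7 probe sets changed by -2.35 and -2.70, while 1 CNOT8 probe set stood at -0.05 and 1 CNOT6 probe set at -0.20 without passing (limma adjusted p = 0.813 and 0.257 over probe sets).

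NUFIP2, whose protein binds FMRP, fell on all 4 of its tested probe sets, with changes of -0.81, -1.43, -1.89 and -2.11. The probe sets of LSM12 changed by -1.04 and -2.16. Both FXR2 probe sets rose, by 1.79 and 1.99, and both VCP probe sets by 1.65 and 1.67.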
